A study of Mus musculus with 6 samples.

Results

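Pericytes are the mural cells that wrap the capillary wall of the brain. The cells described here are the 890 of 18393 cells that the study's cell table annotates with the subtype Pericytes, in single-cell RNA-seq of mouse neocortex at postnatal day 5 (P5); the 141 fibroblasts that share their main cell type were left out. The authors clustered the cells on their most variable genes and named the clusters by known cell type markers. Differences between pericytes and other annotated cells are therefore given as a description, with no test. The cortex of 3 wild type (WT) mice (FVB.129P2-Pde6b+ Tyrc-ch/AntJ) and of 3 Fmr1-KO mice, which carry the allele Fmr1tm1Cgr on the same FVB.129P2-Pde6b+ Tyrc-ch background, both sexes being used, was dissociated with papain and encapsulated by inDrop, which tags each transcript with a unique molecular identifier (UMI). Fmr1 encodes FMRP, the RNA-binding protein lost in fragile X syndrome, and the knockout affects every cell of the animal, not pericytes alone. The question for the genotypes was whether pericyte number or expression differed in the absence of FMRP, with each mouse as 1 replicate.

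Pericytes are recruited to growing capillaries by PDGF-B from the endothelium, which acts on the receptor PDGFRB on the pericyte. They lay down basement membrane together with the endothelial cells, are needed for the blood-brain barrier, and carry a KATP channel built from the pore subunit Kir6.1 (Kcnj8) and the regulatory subunit SUR2 (Abcc9). Vascular smooth muscle cells are related mural cells of arteries and arterioles that hold a contractile apparatus, marked by Acta2, Tagln and Myh11.

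The WT mice gave 60, 140 and 209 pericytes and the Fmr1-KO mice 58, 59 and 364, spread over 17 libraries with 12 to 143 pericytes each. The summed UMIs of the pericytes of a mouse ran from 174626 (Fmr1-KO 2) to 1177673 (Fmr1-KO 3), and a pericyte held 706 to 15766 UMIs. WT 1, Fmr1-KO 1 and Fmr1-KO 2 were made with V2 beads and WT 2, WT 3 and Fmr1-KO 3 with V3.8 beads, the same mice that were collected together, so bead version and collection cannot be told apart. Of the 890 pericytes, 136 (15.3%) carried a cell barcode that was also held by a pericyte of another library of the same mouse (60 barcodes), while 8 shared a barcode with a pericyte of another mouse; the shallower entry had a median of 0.518 times the UMIs of the deeper one. Whether such entries are 1 cell counted more than 1 time was not tested, and values with 1 entry per barcode and mouse (810 pericytes) are given beside the results that rest on cell numbers. The 4 Y-linked genes summed to 177 to 272 CPM (UMIs of a gene per 1e6 UMIs of the summed cells) in the pericytes of 5 mice and to 11.5 CPM in Fmr1-KO 2. Fmr1 itself was low in pericytes: 11, 20 and 39 UMIs in WT 1 to 3, and 3, 0 and 7 in Fmr1-KO 1 to 3, that is 56.5, 64.9 and 59.7 CPM against 14.3, 0 and 5.94. The genotypes did not overlap, and in a fit without a filter on low counts Fmr1 was lower in Fmr1-KO (log2 fold change -3.11, SE 0.53, edgeR quasi-likelihood FDR 1.54e-05). With edgeR's own filter on low counts, filterByExpr, the change was -3.15 and was not called (edgeR quasi-likelihood FDR 0.219).

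The annotated cells carried the markers of pericytes in every mouse. Of the 890 cells, 667 (74.9%) had a UMI of all 4 of Vtn, Rgs5, Kcnj8 and Pdgfrb, 153 of 3 of them and 3 of none. Rgs5, a regulator of G protein signalling, was at 2661, 4927 and 4552 CPM in WT 1 to 3 and 3125, 2783 and 5485 CPM in Fmr1-KO 1 to 3. The 3 mice with V2 beads were lower than the 3 with V3.8 beads, whichever the genotype. Vtn, the adhesive glycoprotein vitronectin, stood at 1469 to 1701 CPM in WT and 1849 to 2014 CPM in Fmr1-KO. Pdgfrb stood at 1628 to 1920 CPM and 1969 to 2296 CPM in the same order. Abcc9 averaged 2246 ± 313 CPM and Kcnj8 1132 ± 174 CPM (SD, n = 6 mice). The other markers were Higd1b, a hypoxia-inducible domain protein, at 1434 ± 368 CPM, the Notch receptor Notch3 at 1225 ± 232 CPM, the P5-type ATPase Atp13a5 at 935 ± 63.2 CPM, the NG2 proteoglycan Cspg4 at 904 ± 94.6 CPM and the aminopeptidase Anpep (CD13) at 227 ± 26.7 CPM.

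**Figure D1:**
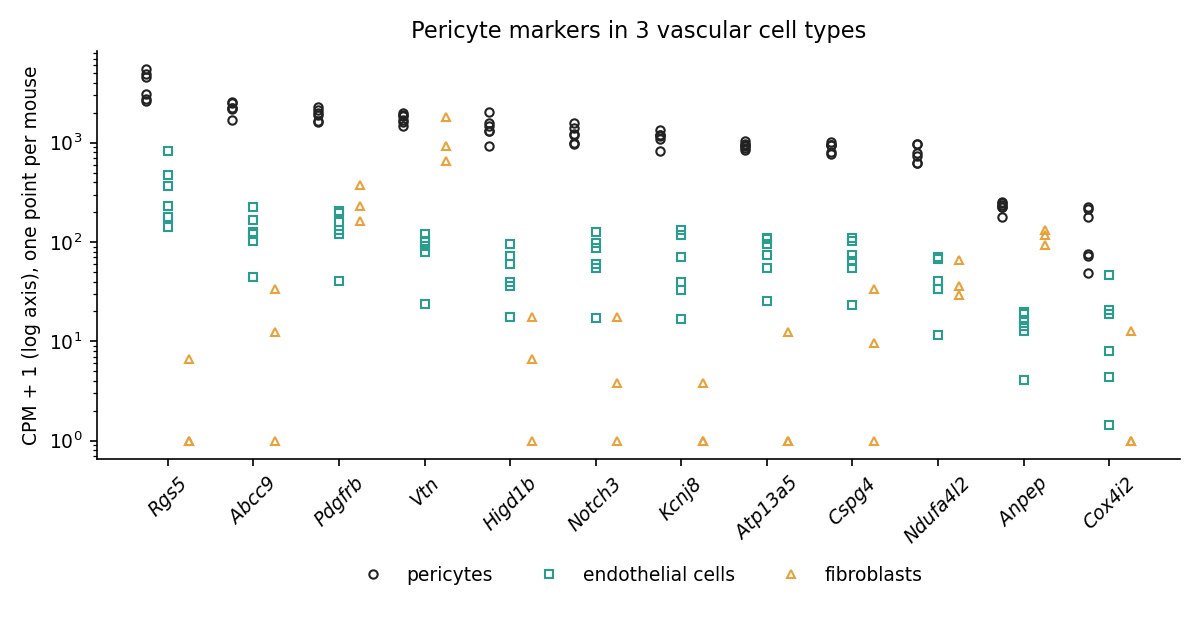
Level of 12 pericyte markers, in CPM + 1 on a log axis, with 1 point per mouse in pericytes (n = 6 mice), endothelial cells (n = 6) and fibroblasts (n = 3 mice with at least 10 fibroblasts). For every gene shown the 6 pericyte points lie above the 6 endothelial points, narrowly so for Cox4i2; for Vtn the fibroblasts (661 to 1811 CPM) overlap the pericytes.

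In endothelial cells the same markers were found at a small part of the pericyte level. Averaged over mice, the endothelial level was 9.45% of the pericyte level for Rgs5, 7.31% for Pdgfrb, 5.91% for Kcnj8, 5.77% for Abcc9, 4.83% for Vtn and 3.67% for Higd1b. In fibroblasts the level was 64.4% of the pericyte level for Vtn and 13.2% for Pdgfrb, but 0.048% for Rgs5 and 0.083% for Kcnj8. No fibroblast had a UMI of all 4 markers. In 15 annotated subtypes with at least 50 cells, the genes whose pericyte level was farthest above the highest other subtype were Higd1b (27-fold), Aspn (25.2-fold), Des (23.9-fold), Dlk1 (19.7-fold), Ndufa4l2 (18.1-fold), Tbx2 (17.9-fold), Abcc9 (17.3-fold), Kcnj8 (16.8-fold), Plxdc1 (16.6-fold) and Col28a1 (15.7-fold). Des encodes the intermediate filament desmin, Dlk1 a Notch-family ligand-like protein and Tbx2 a T-box transcription factor. Of 2652 genes with at least 50 CPM in the pericytes of each mouse, 59 (2.22%) were at least 4-fold above every other subtype, 295 (11.1%) at least 4-fold above endothelial cells and 244 (9.2%) at least 4-fold above fibroblasts.

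Against endothelial cells the highest ratios belonged to Mgp (66.6-fold, 896 CPM in pericytes), the matrix protein Aspn (42-fold), Pdlim1 (32.8-fold), the monocarboxylate carrier Slc16a12 (28.4-fold) and the receptor tyrosine kinase Axl (27.3-fold), followed by Higd1b, Abca9, Mfrp, the laminin chain Lama2 and Cd248 (24.0-fold). Among the subtypes other than pericytes, fibroblasts had the highest level of Mgp, Aspn, Slc16a12, Lama2 and Cd248. Against fibroblasts the highest ratio was that of Rgs5 (3922 against 1.89 CPM), and Art3, Mmp9, Lurap1l, Plxdc1 and Sfrp2 were listed at 0 in the 3 mice with at least 10 fibroblasts. Kcnj8, the soluble guanylate cyclase subunit Gucy1a3, Mcam (CD146) and Gm13889 made up the rest of the 10. Mmp9, a gelatinase, differed widely between mice: 1048, 133 and 93.3 CPM in WT 1 to 3 and 320, 939 and 146 CPM in Fmr1-KO 1 to 3, so that the 3 mice with V2 beads were the 3 highest. Of the 890 pericytes, 162 held an Mmp9 UMI.

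Pericytes held mostly 1 member of several pairs of related genes; the tags come from the 3′ end, so the shares do not depend on transcript length. Of the UMIs of Ndufa4l2 and Ndufa4, 2 related subunits of the mitochondrial respiratory chain, Ndufa4l2 made up 88.8 to 94.5% in the pericytes of the 6 mice and 2.31 to 17.3% in their endothelial cells. Higd1b made up 93.2 to 95.9% of Higd1b and Higd1a UMIs in pericytes, and 11.6 to 50% in endothelial cells. For cytochrome c oxidase subunit 4, by contrast, the form Cox4i1 prevailed in both, and Cox4i2 made up 3.33 to 17.7% in pericytes. This share split by bead version, with 12.8 to 17.7% in the mice with V2 beads and 3.33 to 4.88% in those with V3.8 beads. Kcnj8 had 3312 UMIs against 1 of Kcnj11, and Abcc9 had 6418 against 15 of Abcc8, the subunits of the KATP channel of pancreatic beta cells. Notch3 made up 75 to 85.3% of Notch3 and Notch1 UMIs in pericytes and 7.99 to 26.1% in endothelial cells. The ranges of pericytes and endothelial cells did not overlap for Ndufa4l2, Higd1b and Notch3. Rgs5 made up 72.4 to 84.8% of Rgs5 and Rgs4 UMIs in pericytes and 75 to 93.7% in endothelial cells, and Pdgfrb 89.9 to 100% and 89.6 to 98.3% of Pdgfrb and Pdgfra UMIs, so those shares overlapped.

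Signalling genes are given by pathway. Of PDGF signalling, Pdgfrb was followed by the co-receptor Nrp1 at 406 ± 53.2 CPM and the ligand Pdgfa at 106 ± 56.1 CPM. Of the Notch pathway, Notch3 was followed by the target genes Heyl (588 ± 116 CPM) and Hes1 (442 ± 75 CPM) and by Notch1 (317 ± 92.4 CPM). Heyl was at 6.25% of the pericyte level in endothelial cells, whereas Hes1 was at 127%. Among secreted factors, the insulin-like growth factor Igf2 (5836 ± 1707 CPM) and pleiotrophin, Ptn (4306 ± 440 CPM), were both higher still in fibroblasts (314% and 232% of the pericyte level). The sphingosine-1-phosphate receptor S1pr3 was at 650.5 ± 104 CPM and at 6.02% of that in endothelial cells, while the cadherin Cdh2, which joins the 2 cell types, was at 253 ± 84.3 CPM and at 145% of that in endothelial cells. Of the basement membrane genes, Col4a1 was at 6044 ± 514 CPM, Sparc at 5679 ± 570 CPM and Col4a2 at 3875 ± 569 CPM, with endothelial levels of 31.3%, 143% and 46.7% of these. Of the transport genes, Atp1b2 was at 607.5 ± 165 CPM. Caldesmon, Cald1, an actin-binding protein, was at 2592 ± 223 CPM.

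The 18 endothelial markers summed to 1169 to 1449 CPM per mouse, 5.23% of their summed level in endothelial cells when pooled, and Cldn5 was found in 4.49% of pericytes against 98.2% of endothelial cells (median depths 2694 and 3687 UMIs). Esam, with 491 ± 61.2 CPM, was the highest of the 18. The 10 microglia markers summed to 31.4 to 97.4 CPM, 0.301% of the level in microglia. The 18 fibroblast markers summed to 7300 to 12262 CPM, 17.9% of the level in fibroblasts when pooled. Of these, Igf2 was at 3746 to 8396 CPM and Mgp at 332 to 2304 CPM. Col1a2 was at 604 to 1350 CPM and Col3a1 at 437 to 800 CPM, while Dcn had 0 to 4.78 CPM. The 12 astrocyte markers summed to 4019 to 5356 CPM, 11.3% of the level in astrocytes when pooled. The 10 neuron markers summed to 124 to 555 CPM in WT and 104 to 584 CPM in Fmr1-KO, with the 3 mice of V2 beads above the other 3.

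Part of the endothelial cells carried pericyte transcripts. Of 1439 endothelial cells, 1000 held none of the 4 pericyte markers, 214 held 1 or 2, and 225 held 3 or 4. The 225 cells had a median of 5738 UMIs against 3068 UMIs for the 1000. Their Cldn5 level (6319 CPM) was close to that of the 1000 (7038 CPM), and they also held Rgs5 at 1278 CPM, Pdgfrb at 428 CPM, Abcc9 at 328 CPM and Kcnj8 at 256 CPM. Abcc9 and Higd1b, which were not used to form the groups, were at 4.15 and 1.22 CPM in the 1000 cells without the markers and at 328 and 164 CPM in the 225. The share of endothelial cells with 3 or 4 markers was 18.5, 16.8 and 7.29% in WT 1 to 3 and 7.09, 8.4 and 31% in Fmr1-KO 1 to 3, highest in the mouse with the most pericytes. In the reverse direction, 66 of 890 pericytes (7.42%) had 2 or more UMIs over 6 endothelial markers. Whether the 225 droplets held a cell of each type was not tested.

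Some pericytes carried smooth muscle transcripts. Acta2, smooth muscle actin, had no UMI in 797 of 890 pericytes, and 45 cells (5% of the pericytes) held 90.2% of the 1821 Acta2 UMIs and 8.05% of all UMIs. The 46 cells with 10 or more Acta2 UMIs are called Acta2-high here, a cut chosen after the values were seen: 11 of them had 10 to 14 UMIs, 16 further cells had 5 to 9, and 31 had 1 to 4. The cut is along a range and the Acta2-high cells were not given another cell type name. After each cell was thinned to 700 UMIs, Acta2 was found in 8.31% of pericytes and 0.07% of endothelial cells (10.4% and 0.417% as deposited). The Acta2-high cells had a median of 4683 UMIs, against 2617 UMIs for cells without Acta2, and 43 of the 46 remained with 1 entry per barcode.

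The promoters of Acta2, of the KATP channel genes, which were low in the Acta2-high cells, and of Rgs5, which was not, are shown, as the 250 bases before the start in RefSeq (GRCm38.p6), 5′ to 3′ on the gene's strand. Capitals mark matches to 3 motifs, searched on both strands: TGGGAA, the core of the site of the Notch effector RBPJ, GGAATG, the core of the TEAD site, and a CArG-like element, the site of serum response factor with at most 1 base of its A/T core replaced. They were found in 21.6%, 12.6% and 8.59% of the 32851 promoters of the table, respectively. The Acta2 promoter (chr19:34255374-34255623, minus strand) holds 2 CArG-like elements, 1 TGGGAA, which overlaps the second CArG-like element, and 1 GGAATG. The Abcc9 promoter (chr6:142702275-142702524, minus strand) holds a TGGGAA and a GGAATG that overlap each other. The Kcnj8 promoter (chr6:142571615-142571864, minus strand) and the Rgs5 promoter (chr1:169655251-169655500, plus strand) hold none of the 3 in this window.
Acta2: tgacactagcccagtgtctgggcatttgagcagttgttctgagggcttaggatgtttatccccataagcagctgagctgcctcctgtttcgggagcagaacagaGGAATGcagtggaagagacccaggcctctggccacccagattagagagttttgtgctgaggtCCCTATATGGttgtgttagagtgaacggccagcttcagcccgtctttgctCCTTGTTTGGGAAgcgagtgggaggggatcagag
Kcnj8: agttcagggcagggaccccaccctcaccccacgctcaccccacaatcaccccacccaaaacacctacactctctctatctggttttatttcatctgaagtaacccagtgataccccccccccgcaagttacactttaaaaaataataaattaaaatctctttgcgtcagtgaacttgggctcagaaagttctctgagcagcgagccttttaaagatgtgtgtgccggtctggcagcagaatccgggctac
Abcc9: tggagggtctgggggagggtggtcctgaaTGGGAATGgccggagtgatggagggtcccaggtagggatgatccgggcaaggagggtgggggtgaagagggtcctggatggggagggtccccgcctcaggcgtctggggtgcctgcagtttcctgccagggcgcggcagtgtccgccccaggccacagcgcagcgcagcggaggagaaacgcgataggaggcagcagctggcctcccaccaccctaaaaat
Rgs5: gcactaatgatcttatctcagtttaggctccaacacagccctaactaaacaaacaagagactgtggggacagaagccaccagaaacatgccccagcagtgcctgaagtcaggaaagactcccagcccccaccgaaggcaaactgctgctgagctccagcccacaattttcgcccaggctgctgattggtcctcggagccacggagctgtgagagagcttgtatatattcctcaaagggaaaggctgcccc
Kcnj8 (chromosome 6, 142564837 to 142571614) and Abcc9 (142587862 to 142702315) are neighbours on the minus strand, 16248 bases apart in the GENCODE M21 annotation (mm10).

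The Acta2-high cells were high in the contractile genes and low in the KATP channel genes. Tagln was at 2736 CPM in them against 15.8 CPM in cells without Acta2, Myh11 at 1035 against 11.1 CPM, Tpm2 at 756 against 56.1 CPM and Tpm1 at 1917 against 383 CPM. Myl9 and Mylk, which 92.8% and 87.8% of pericytes hold, differed less (2.38-fold and 2-fold), as did Des (2-fold). Kcnj8 was at 149 against 1378 CPM (10.8%) and Abcc9 at 212 against 2657 CPM (7.96%). Of the Acta2-high cells, 24 of 46 had no UMI of either channel gene, against 17 of 797 cells without Acta2 and 0 of the 120 cells without Acta2 that were at least as deep as the median Acta2-high cell. Atp13a5 (23.3%), Art3 (19.4%), Foxf2 (22.8%), Slc6a20a (19.7%) and Cox4i2 (13.1%) were lower too, whereas Rgs5 (88.4%), Cspg4 (85.8%) and Vtn (67.3%) kept more of their level, and Notch3 was higher, at 1814 against 1052 CPM. No Acta2-high cell had a UMI of Pecam1, Dcn, Lum or Col1a1. These were also rare in cells without Acta2 (0.753, 0.251, 0.125 and 3.76% of cells), so their absence from 46 cells says little. The median Acta2-high cell had no UMI of Cldn5, Flt1 or Stmn2, though Flt1 was found in 15.2% of them against 12% of cells without Acta2. Mgp, a member of the fibroblast marker list, was higher in the Acta2-high cells, at 6526 against 434 CPM. Cells with 1 to 9 Acta2 UMIs were between the 2 classes for Kcnj8 (375 CPM), Abcc9 (1030 CPM) and Tagln (412 CPM).

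**Figure D2:**
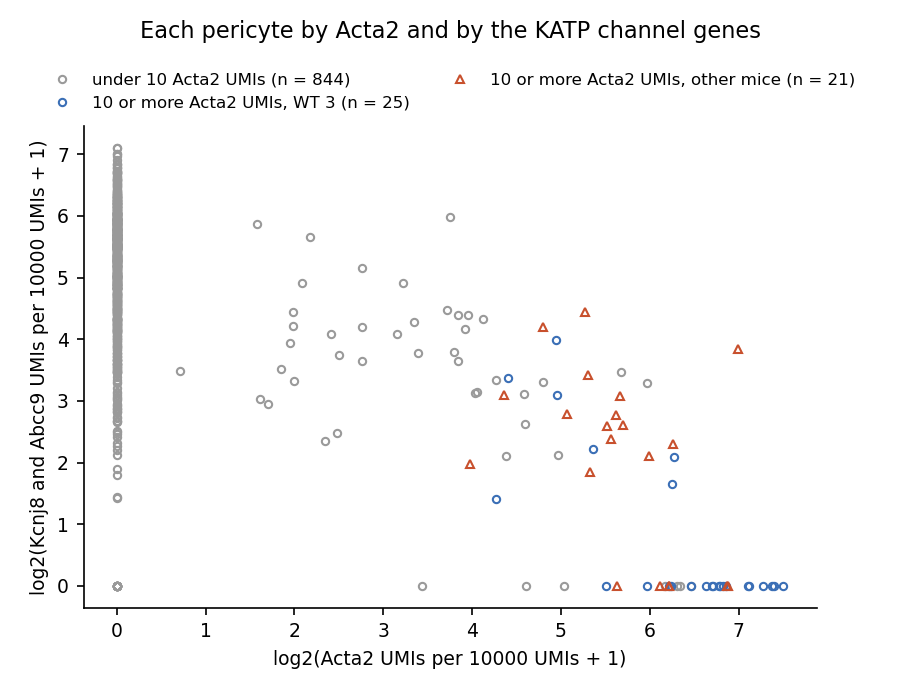
Each of the 890 pericytes by its Acta2 UMIs and by its summed Kcnj8 and Abcc9 UMIs, both scaled to the UMIs of the cell, on a log2 axis after adding 1. The 25 Acta2-high cells of WT 3 and the 21 of the other mice lie to the right and low, and 24 of the 46 lie at 0 on the vertical axis.

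The pattern was present within each of the 2 mice that had at least 10 Acta2-high cells. In WT 3 Kcnj8 was at 79 CPM in Acta2-high cells and 1489 CPM in cells without Acta2, and in Fmr1-KO 3 at 268 and 1521 CPM. Abcc9 was at 79 against 2716 CPM in WT 3 and at 491 against 2880 CPM in Fmr1-KO 3. The contractile genes were higher in WT 3 (Tagln 3966 CPM, Myh11 1541 CPM) than in Fmr1-KO 3 (1160 and 253 CPM), and Eln, elastin, was at 3753 CPM in the Acta2-high cells of WT 3 and had no UMI in those of Fmr1-KO 3. The mice differed in how many such cells they held: 1 of 60, 0 of 140 and 25 of 209 pericytes in WT 1 to 3, and 4 of 58, 2 of 59 and 14 of 364 in Fmr1-KO 1 to 3. The share was 12% in WT 3 (exact 95% binomial interval 7.89 to 17.1%), and the count of 0 of 140 cells of WT 2 has an exact upper bound of 2.6% (2.14% when 3 counts are taken as the limit of a count of 0); intervals and limits cover counting error only. WT 2 was also the shallowest mouse, with a median of 1616.5 UMIs per pericyte, and the cut of 10 Acta2 UMIs was the same at every depth. As sums over all pericytes of a mouse, Acta2 was at 144, 35.7 and 1870 CPM in WT and 774, 183 and 311 CPM in Fmr1-KO. Without the Acta2-high cells it was at 0, 35.7 and 70.2 CPM and at 158, 46.8 and 73.8 CPM.

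The authors' clustering split the pericytes further into 2 clusters without names, one of 691 cells with a median of 3224 UMIs and one of 199 cells with a median of 1075 UMIs. Rgs5 was at 4647 CPM in the deeper and 4566 CPM in the shallower cluster, Vtn at 1815 and 1864 CPM and Abcc9 at 2368 and 2292 CPM. Several other markers were lower in the shallower cluster, with Kcnj8 at 1236 and 1036 CPM, Pdgfrb at 2014 and 1726 CPM, Foxf2 at 314 and 237 CPM and Cox4i2 at 96.5 and 69.1 CPM. Several genes of other cell types were higher there: Aqp4 was at 8.85 and 60.4 CPM, Apoe at 221 and 539 CPM, Slc1a3 at 65.6 and 155 CPM and Cldn5 at 18.1 and 47.5 CPM. Their part in the split was not tested. The summed level of 32 genes of dividing cells was 2174 CPM in the deeper and 962 CPM in the shallower cluster, and Top2a was at 144 and 21.6 CPM. Acta2 was at 602.5 and 1394 CPM. Of the 80 entries whose barcode had a deeper entry in the same mouse, 49 were in the shallower cluster. Over both clusters, Top2a or Mki67, genes of dividing cells, had a UMI in 109 of 890 pericytes, 12.2%, and in 21.2% of endothelial cells. At 700 UMIs per cell the shares were 7.42% and 7.85%. By mouse the thinned share of pericytes was 13.3, 8.57 and 4.31% in WT and 12.1, 10.2 and 6.59% in Fmr1-KO, and the genotypes overlapped. Cells with these UMIs held the pericyte markers at lower levels than the other pericytes: Rgs5 at 3020 against 4994 CPM, Vtn at 1255 against 1942 CPM, Kcnj8 at 923 against 1283 CPM, Pdgfrb at 1515 against 2094 CPM and Abcc9 at 1809 against 2482 CPM. They were also deeper, with a median of 3961 against 2552 UMIs.

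No difference in pericyte number between genotypes passed the test, and the mice of each genotype were spread widely. Pericytes made up 2.26, 3.8 and 6.12% of all cells without doublets in WT 1 to 3 and 2.86, 2.29 and 12.4% in Fmr1-KO 1 to 3. In a fit over all annotated subtypes with bead version as a term, the log2 fold change in Fmr1-KO was 0.77 (SE 0.45, edgeR quasi-likelihood FDR 0.50). Leaving out Fmr1-KO 3 brought it to 0.19 and leaving out WT 1 to 1.32, and with 1 entry per barcode it was 0.75. For each endothelial cell there were 0.741, 0.737 and 0.525 pericytes in WT and 0.457, 0.225 and 0.955 in Fmr1-KO. The mean log2 ratio was -0.60 in WT and -1.12 in Fmr1-KO (difference -0.51, two-sided exact permutation test over 6 mice, p = 0.6, where the smallest p possible is 0.1). With 1 entry per barcode the difference was -0.54 (exact permutation p = 0.6). The difference was -1.21 with V2 beads (1 WT and 2 Fmr1-KO mice) and 0.62 with V3.8 beads (2 and 1), and the libraries of Fmr1-KO 2 (0.183 to 0.313) and of Fmr1-KO 3 (0.832 to 1.07) did not overlap, while those of WT 1 ran from 0.535 to 0.974. Median UMIs per pericyte were 2897, 1616.5 and 2736 in WT and 3657.5, 2385 and 2967.5 in Fmr1-KO (exact permutation p = 0.4). With 1 entry per barcode they were 3042.5, 1874.5 and 2835 in WT and 3680, 3092.5 and 3169.5 in Fmr1-KO, so that every Fmr1-KO mouse was above every WT mouse (difference 730 UMIs, exact permutation p = 0.1, the smallest this design can give).

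**Figure D3:**
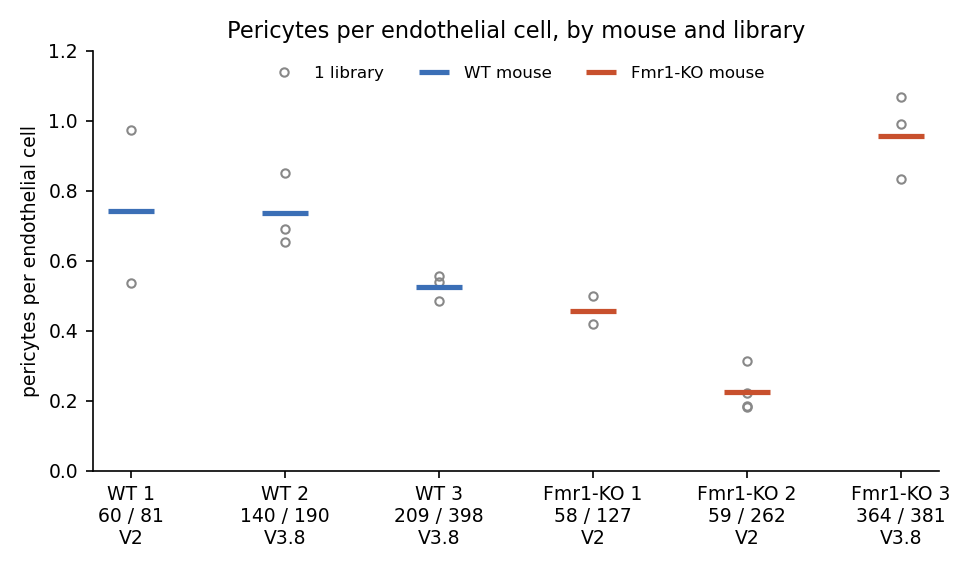
Pericytes per endothelial cell, as a coloured dash for each mouse and circles for each library; under each mouse stand its pericytes and endothelial cells and its bead version. The Fmr1-KO mice hold both the lowest (0.225) and the highest ratio (0.955), so the WT mice lie between them.

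Expression of single genes in pericytes did not pass the threshold between genotypes. The sums of each mouse were tested with edgeR's quasi-likelihood test with bead version as a term, over the 3099 genes detected in 15% or more of the pericytes, and 0 genes (0%) were called at FDR under 0.01 with a change of at least 15%. The lowest FDR was 0.54, and 0 genes were called by DESeq2. At an unadjusted p under 0.05 there were 53 higher genes (1.71%) and 49 lower genes (1.58%), 102 in all (3.29%). The values below are those of the 8 higher and 8 lower genes with the smallest p that kept their sign with both bead versions. None of them passed. Genes chosen in this way are apt to separate the genotypes, and the share of all 3099 genes without overlap between genotypes was not counted.

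Of the 8 lower genes, Glul, glutamine synthetase, had 293, 269 and 233 CPM in WT 1 to 3 and 162, 200 and 102 CPM in Fmr1-KO 1 to 3, without overlap (log2 fold change -1.04, SE 0.22, FDR 0.54). Cpe, carboxypeptidase E, had 221, 240 and 199 CPM against 100.4, 132 and 117 CPM (-0.91, SE 0.21, FDR 0.54). Apoe had 241, 370 and 327 CPM against 201, 195 and 189 CPM (-0.65, SE 0.20). All 3 WT mice were above all 3 Fmr1-KO mice for these 3 genes, which the choice by small p favours. Glul, Cpe, Apoe and the lipid phosphatase Ppap2b were at 3835, 5062, 9071 and 2546 CPM in pooled astrocytes, well above their 210, 168, 254 and 118 CPM in pericytes. The 12 astrocyte markers summed to 4019 to 5356 CPM in WT and 4339 to 5297 CPM in Fmr1-KO pericytes; none of the 12 was without a UMI, and astrocytes made up 36.9 to 52.8% of the cells of a WT mouse and 31.9 to 41.2% of an Fmr1-KO mouse. Their part in these differences was not tested. Fosb, an immediate early gene, had 360, 201 and 483 CPM against 201, 126 and 140 CPM, with WT 2 just above Fmr1-KO 1 (-1.25, SE 0.29, FDR 0.54), and was called when the Acta2-high cells were left out (-1.37, FDR 0.0046). Cebpd, a transcription factor of the acute phase response, had 159, 149 and 485 CPM against 90.8, 68.7 and 142 CPM, with WT 3 far above the rest (-1.15, SE 0.36). Ifrd1 (-0.82) and Ccng2 (-0.85) were the others.

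**Figure D4:**
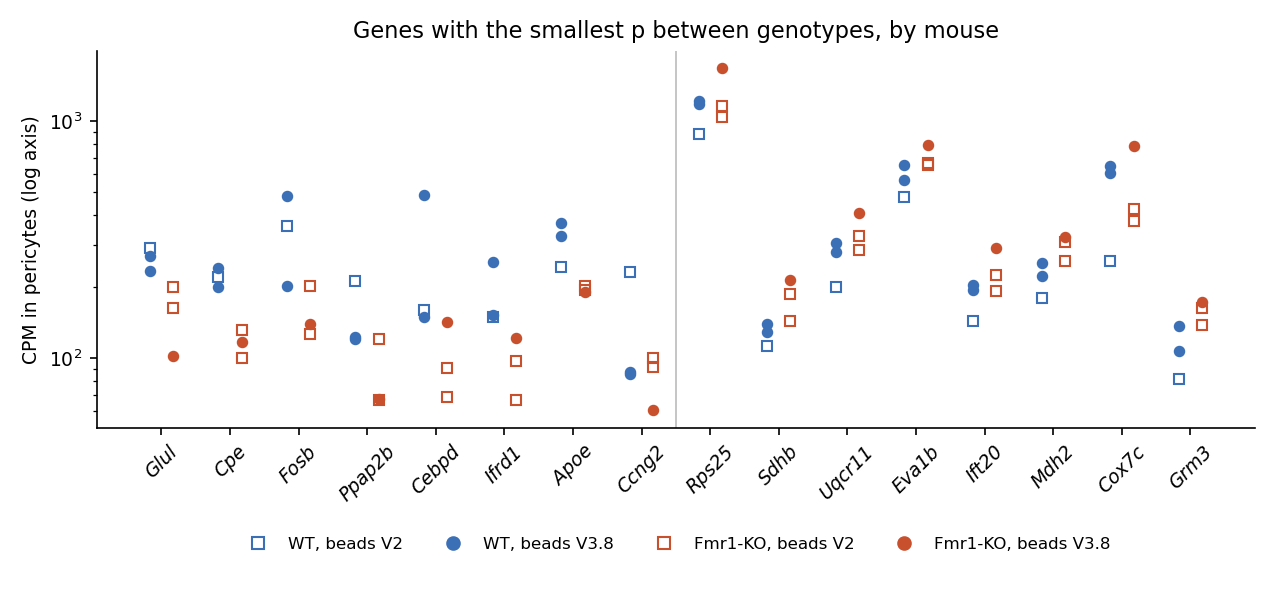
Level of the 8 lower (left of the line) and 8 higher genes (right) in pericytes, in CPM on a log axis, with 1 point per mouse (blue WT, red Fmr1-KO, open squares V2 beads, filled circles V3.8 beads). Ccng2, Rps25, Uqcr11, Ift20 and Cox7c overlap between genotypes and the others do not. The 16 were chosen for their small p, which favours genes without overlap, and the share without overlap among all genes tested was not counted. None of the 16 passed the threshold.

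Of the 8 higher genes, 3 belong to the respiratory chain: Sdhb of complex II had 113, 140 and 129 CPM in WT and 186, 143 and 214 CPM in Fmr1-KO without overlap (log2 fold change 0.64, SE 0.21), Uqcr11 of complex III had 200.3, 279 and 306 against 287, 326 and 408 CPM (0.52, SE 0.18) and Cox7c of complex IV stood at 257, 600.5 and 644 against 378, 424 and 785 CPM (0.44, SE 0.16). Uqcr11 and Cox7c overlapped between genotypes, but not within a bead version, where having 1 sign was part of the choice. Mdh2, malate dehydrogenase of the mitochondrial matrix, had 180, 253 and 222 against 258, 309 and 323 CPM (0.53, SE 0.19), without overlap. The ribosomal protein gene Rps25 (0.41), Eva1b (0.41), Ift20 of cilium transport (0.54) and the glutamate receptor Grm3 (0.63) completed the 8, each with an FDR above 0.99. Vtn and Pdgfrb were higher in every Fmr1-KO mouse than in any WT mouse, with log2 fold changes of 0.31 (SE 0.12) and 0.31 (SE 0.13), at FDR above 0.99. How many of all 3099 genes were likewise without overlap was not counted, so this separation says little. Kcnj8 (-0.04, SE 0.15) and Rgs5 (0.18, SE 0.12) overlapped between genotypes. Slc7a5, an amino acid transporter, was at 113, 104 and 52 CPM in WT and 86, 74.4 and 62 CPM in Fmr1-KO (-0.33, SE 0.30).

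The median log2 fold change over all 3099 genes was -0.002. Of 27 tested pericyte markers, 2 were higher at an unadjusted p under 0.05 (Vtn and Pdgfrb) and 0 lower, with a median of 0.01. The number higher was 0 without the bead term, with the replicate block in its place, without WT 1 and without Fmr1-KO 2. Of 76 respiratory chain genes, 8 were higher (10.5%, against 1.71% of all genes) and 0 lower (Atp5b, Atp5g3, Atp5k, Atp5o, Cox7c, Ndufb9, Sdhb and Uqcr11), and 66 had a positive value; the median was 0.18, and 0.12 and 0.23 within V2 and V3.8 beads. Fewer passed without Fmr1-KO 3 (3 higher, 2 lower, median 0.12), without WT 1 (2 higher) and without the bead term (1 higher). Of 80 ribosomal protein genes 4 were higher and 0 lower, with a median of 0.08 that was -0.08 with V2 beads and 0.23 with V3.8 beads; without Fmr1-KO 3 it was -0.08, with 0 higher and 4 lower, and without WT 1 it was 0.23, with 9 higher. Of 22 immediate early and stress genes 0 were higher and 3 lower (Fosb, Zfp36 and Klf2), with a median of -0.20 that was 0.01 with V2 and -0.25 with V3.8 beads; without WT 3 it was -0.005 and without Fmr1-KO 3 0.04, whereas without WT 2 it was -0.32 with 7 lower and without the bead term -0.47 with 2 lower. Fos stood at 863, 2457 and 4140 CPM in WT and 1142, 796 and 2866 CPM in Fmr1-KO, so the V3.8 mice were above the V2 mice. Of 25 basement membrane genes Vtn was higher and Adamts1 lower, and of 22 genes of vascular tone, 7 Notch, 9 TGF-beta, 6 smooth muscle and 14 transport genes none passed p under 0.05. Of 3 PDGF genes 1 was higher (Pdgfrb), and of 13 genes of mTOR and translation control 1 was lower (Mapk3).

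**Figure D5:**
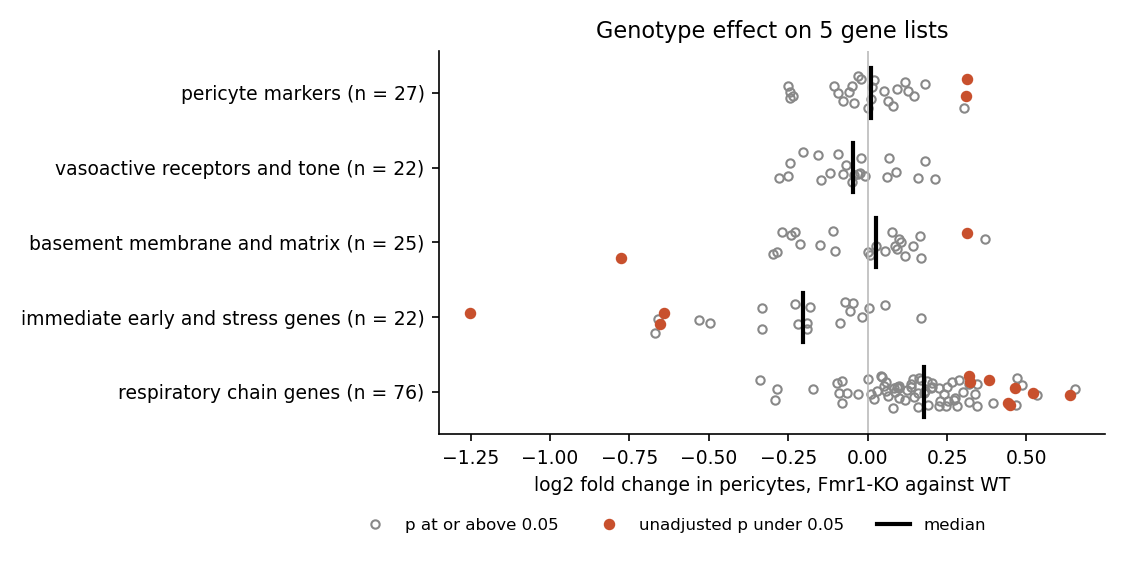
log2 fold change of each tested member of 5 gene lists in pericytes, Fmr1-KO against WT, with the median of the list as a bar and members at an unadjusted p under 0.05 filled. The respiratory chain genes have a median of 0.18 and the immediate early and stress genes of -0.20, while the medians of the other 3 lie between -0.05 and 0.03.

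When all 14015 genes with a UMI were tested, 14 were called, all lower in Fmr1-KO. Of these, Eln, Actg2, Crispld2, Fmod, Lox, Aoc3, Tinagl1 and Il6 had 80.8 to 98.9% of their pericyte UMIs in the 46 Acta2-high cells. Eln had 477 of its 487 UMIs in WT 3, was found in 11 Acta2-high cells, and had 1 and 2 UMIs in the other WT mice. Crispld2 had 103 of 108 UMIs in WT 3 and Actg2 86 of 87. The other 6 calls were Fmr1, Fosb, Cspg5, Igfbp2, Nr4a2 and Slc1a3. When the test was limited to genes detected in 15% of cells and the Acta2-high cells were left out, Fosb was the only call.

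The genotype effect was compared with that of endothelial cells of the same mice by a term for the difference, over 4573 genes. No gene was called (0%) and 127 had an unadjusted p under 0.05 (2.78%). The 5 genes with the smallest p were Cd82, Lgals1, Kdr, Slc38a3 and Glul, each with an FDR of 1. Kdr, the VEGF receptor of endothelial cells, was at 82.2, 22.7 and 61.2 CPM in WT pericytes and 9.56, 11.5 and 30.6 CPM in Fmr1-KO pericytes, against 2934 to 4831 CPM in endothelial cells. The pericyte levels of Kdr rest on 16, 7 and 40 UMIs in WT 1 to 3 and 2, 2 and 36 in Fmr1-KO 1 to 3. In the same order, Cd82 had 3, 3 and 15 against 0, 0 and 2 UMIs, and Slc38a3 had 2, 11 and 7 against 0, 2 and 1. Lgals1, galectin-1, was at 292 to 537 CPM in pericytes and 5.25 to 30.7 CPM in endothelial cells. Its log2 fold change in pericytes alone was only -0.23 (SE 0.20). The difference between its log2 fold changes, pericytes minus endothelial cells, was -1.95 (SE 0.50). For Glul the difference was -0.90 (SE 0.25).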

How the data were processed

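Per the labels and the study's methods, the authors aligned inDrop reads to mm10 with TopHat2 2.0.14, counted UMIs per RefSeq gene, kept cells of at least 700 UMIs (53 cells in the table are under it), marked 1113 doublets and clustered and named the cells. The deposited table holds these UMI counts, raw and per cell (17418 genes, 18393 cells). Here counts of the 890 pericytes were summed per mouse and tested with edgeR 4.0.16 (R 4.3.3; quasi-likelihood, TMM, Benjamini-Hochberg FDR) with the bead version as a term, on genes with a UMI in 15% of the pericytes; DESeq2 1.42.0 was an alternative. A level in CPM is a gene's share of the summed UMIs of a mouse, for mice with at least 10 cells. Thinning drew 700 UMIs per cell. No doublet caller was run beyond the authors' marks. Mice are the replicates and no test was made over cells. The scripts were tested on simulated data.

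The pericyte subtype and the 22 gene lists were chosen with earlier results of these data known. Genes are named by rule: Fmr1 and 4 pericyte markers, up to 4 most abundant genes of each list, both members of 8 related pairs, the 8 higher and 8 lower genes with the smallest p and 1 sign with both bead versions, the 5 smallest p of the comparison with endothelial cells, the 10 highest level ratios against each of endothelial cells, fibroblasts and other subtypes (0.5 CPM added, at least 50 CPM in each mouse), and Slc7a5. Other genes were named after their values were seen. Reads mapping to several places were ignored in the authors' counting, so near-identical genes may be undercounted. Alternatives were other scalings, filters and terms, DESeq2, cells left out, 1 entry per barcode and leaving out each mouse. 1 gene that the naming rule picks is not reported here.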

Additional observations from a re-analysis of the deposited data

Results flagged for a closer look

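The genotype difference in pericytes per endothelial cell ran in opposite directions with the 2 bead versions: on the log2 scale it was -1.21 with V2 beads, where both Fmr1-KO mice were below the WT mouse, and 0.62 with V3.8 beads, where the Fmr1-KO mouse was above both WT mice. The difference between bead versions was not tested, and bead version cannot be told apart from the batch of collection.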

How the results depend on the processing

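The count of called genotype genes was 0 in the main fit and at FDR under 0.05, and 14 with no filter on low counts, 1 (Fosb) with the cells of smooth muscle UMIs left out, 1 (Fosb) with the Acta2-high cells left out, and 0 to 2 when 1 mouse was left out (2, Cebpd and Fosb, without WT replicate 2). The comparison with endothelial cells gave 0 calls, 0 at FDR under 0.05 and 0 when 1 mouse was left out, and 1 (Eln) with edgeR's filterByExpr. The cell number gave 0.19 to 1.32 when 1 mouse was left out, and as a share of vascular cells it turned to -5.17 percentage points (exact permutation p = 0.7). Pericytes per endothelial cell ran from -1.04 to 0.0027 when 1 mouse was left out, the last without Fmr1-KO replicate 2, and median UMIs per cell differed by 187 to 896. Rgs5 turned to -0.090 with no bead version term and -0.10 with the replicate block, and Kcnj8 to 0.013 with fibroblasts added and, within a range of -0.33 to 0.20 when 1 mouse was left out, to 0.20 without WT replicate 1 and 0.07 without Fmr1-KO replicate 1. Fmr1, called at -3.11 with no filter, was at -3.15 with filterByExpr and not called there (FDR 0.219). Of the other values, 54 of the main results and 669 of single genes and list medians counted as the same, and 48 list medians moved. The cause was not tested. For tested values, the same meant an unchanged direction and side of the threshold, and for counts of called genes an unchanged count. The exact permutation tests were held to p under 0.05, which they cannot reach with these mice (smallest p 0.1). For pericytes per endothelial cell, UMIs per cell and shares of cells, the same therefore meant an unchanged direction only. For a list median it meant a shift smaller than the SD of its medians with the 2 bead versions, so its sign could change. None of the 16 genes named by p changed sign in 294 values. These genes were chosen for a small p and 1 sign with both bead versions, and the 294 values come from the same mice. The 3 numbers shared by WT and Fmr1-KO mice did not pair them: the correlations of same-numbered mice were 0.29, -0.08 and 0.42, and with the replicate block 0 genes were called (3 at FDR under 0.05), 0 in the comparison with endothelial cells, and the cell number gave 0.22; of the 22 immediate early and stress genes 11 were lower with the block, with a median of -0.52. The 3 mice per genotype, of which 2 and 1 share a bead version, and 58 to 60 pericytes in 3 of the mice limit what could be seen; genes with few UMIs rest on a few cells.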
